A study of Mus musculus with 56 samples.

Results

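The 9 digestive enzymes described here, which the exocrine pancreas secretes into the gut, were followed across lung, liver and forestomach of mice exposed to chrysene, a polycyclic aromatic hydrocarbon. The members were the serine proteases Prss2, Ctrb1, Cela1 and Cela2a, the carboxypeptidases Cpa1 and Cpb1, and the lipases Pnlip, Pnliprp1 and Cel. They were chosen by gene symbol, through the RefSeq accession of each probe, and made up 9 of the 20018 named genes on the array. Each member had 1 probe. Pnlip (chr19:58670365-58681799) and Pnliprp1 (chr19:58728887-58744169) lie near each other in the mouse genome (RefSeq, GRCm38.p6), and the others lie on chromosomes 2 (Cel), 3 (Cpb1), 4 (Cela2a), 6 (Cpa1 and Prss2), 8 (Ctrb1) and 15 (Cela1). The 56 arrays came from adult male MutaMouse animals of about 14 weeks, a transgenic strain that carries lacZ as a mutation reporter, with 1 array per mouse and tissue. All mice were gavaged for 28 days, the controls (D0) with olive oil alone and the others with chrysene in that oil. The daily chrysene dose per kg of body weight was 17.5 mg in D1, 50 mg in D2 and 150 mg in D3, and tissue was collected 72 hours after dosing ended. Each group had 5 mice per tissue, except that D2 had 4 in forestomach and liver and 3 in lung. The 3 tissues came from the same animals, so that 1 mouse number stands for 1 mouse throughout.

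Acinar cells of the pancreas make these enzymes in very large amounts, mostly as inactive precursors that are activated in the intestine. Many of their genes share control by PTF1, a factor made of Ptf1a, Rbpjl and an E protein, which binds an E box next to a second element called the TC box. The mouse stomach has a forestomach lined by a keratinised squamous epithelium and a glandular part that holds mucous, parietal and chief cells, and chief cells secrete digestive enzymes of their own.

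The promoters of members that moved together on the arrays are shown here with the letters of the PTF1 elements. All 9 members matched the RefSeq promoter table (GRCm38.p6), in which a promoter has 300 bases and ends 50 bases past the start of the gene. The TC box letters TTTCCCA, on either strand, occurred in 5 of the 9 promoters (Ctrb1, Cpa1, Cel, Prss2, Cela2a) and in 8.06% of the 32851 promoters of the table. The E box letters CACCTG, on either strand, occurred in 5 of the 9 (Cpb1, Cel, Prss2, Cela1, Cela2a) and in 20.21% of all. Other forms of the E box were not searched, so that a promoter without CACCTG may still hold an E box. Cel, Prss2 and Cela2a held both, as did 1.61% of all promoters. No match of one overlapped a match of the other. The 4 promoters printed are of Ctrb1 (chr8:111690961-111691260, minus strand) and Cpa1 (chr6:30638968-30639267, plus strand), which were high on the array of mouse 19 in forestomach, and of Prss2 (chr6:41521526-41521825, plus strand) and Pnliprp1 (chr19:58728637-58728936, plus strand), which were high on several arrays. Capitals mark both motifs.

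Ctrb1: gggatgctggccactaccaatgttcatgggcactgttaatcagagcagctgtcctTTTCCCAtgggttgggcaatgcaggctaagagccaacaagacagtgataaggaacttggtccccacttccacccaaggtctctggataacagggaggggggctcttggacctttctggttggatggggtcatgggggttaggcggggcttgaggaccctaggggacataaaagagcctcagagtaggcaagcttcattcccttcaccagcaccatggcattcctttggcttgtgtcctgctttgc
Cpa1: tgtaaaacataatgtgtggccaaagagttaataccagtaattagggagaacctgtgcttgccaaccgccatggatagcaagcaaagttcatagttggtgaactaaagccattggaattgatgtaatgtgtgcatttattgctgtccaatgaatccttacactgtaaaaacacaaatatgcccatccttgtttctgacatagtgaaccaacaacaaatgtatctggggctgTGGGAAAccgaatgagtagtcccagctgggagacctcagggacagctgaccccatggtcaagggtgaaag
Prss2: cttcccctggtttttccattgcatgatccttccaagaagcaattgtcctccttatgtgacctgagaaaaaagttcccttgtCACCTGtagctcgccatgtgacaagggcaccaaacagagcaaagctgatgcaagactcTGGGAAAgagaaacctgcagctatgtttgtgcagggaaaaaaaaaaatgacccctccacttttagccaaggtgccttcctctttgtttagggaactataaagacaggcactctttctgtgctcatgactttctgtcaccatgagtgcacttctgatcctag
Pnliprp1: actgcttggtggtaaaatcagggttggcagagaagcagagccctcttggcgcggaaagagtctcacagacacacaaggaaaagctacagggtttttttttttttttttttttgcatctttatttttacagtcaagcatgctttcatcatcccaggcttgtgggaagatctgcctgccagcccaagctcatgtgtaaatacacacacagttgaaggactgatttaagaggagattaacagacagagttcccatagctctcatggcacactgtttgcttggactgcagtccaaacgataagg

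The TC box letters began 195 bases before the start in Ctrb1, 20 before it in Cpa1 and 111 before it in Prss2. In Prss2 the E box letters began 169 bases before the start, so that both motifs were not adjacent there. In this window Pnliprp1 had neither set of letters. These are matches of letters only, and binding was not measured.

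Each value is a log2 ratio of the tissue RNA (Cy5) over a universal mouse reference RNA from cell lines (Cy3) on the same spot, as normalised by the authors. No background had been subtracted, so that the ratio of a dim spot lies near a fixed level and says little. A spot counted as measured where the scanner software called its Cy5 signal well above background, and a member was tested in a tissue where this held on at least 3 arrays. Forestomach had 8 tested members, liver 3 and lung 5. Per array, 47.6% to 55.2% of all probes were well above background for lung and 33.2% to 45.2% for liver. In forestomach the share was 39.0% to 50.2% on the 7 arrays of slide 3 (mice 2, 5, 6, 10, 12, 19 and 20) and 18.1% to 33.4% on the other 12. Each labelled tissue carried its markers, as 7 of 8 keratinocyte genes were measured on all forestomach arrays, 6 of 6 hepatocyte genes on all liver arrays and 7 of 7 alveolar type 2 genes on all lung arrays. As bulk tissue was measured, fewer cells of a type and less RNA per cell cannot be told apart.

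In forestomach 6 of the 9 acinar enzymes (Prss2, Ctrb1, Cpb1, Cpa1, Cela2a and Pnlip) were measured on fewer than 10 of the 19 arrays, while Cel was measured on 13, Cela1 on 12 and Pnliprp1 on 10. The Cy3 signal was well above background on all 19 arrays for Ctrb1, Cel and Cela1, on 4 for Prss2, on 1 each for Cpa1 and Pnliprp1, and on 0 for Cpb1, Pnlip and Cela2a, so that the size of high ratios of these 6 is uncertain. All 9 members were measured on the array of mouse 19 (D3), 8 on those of mice 12 (D2) and 20 (D3), 7 on that of mouse 2 (D0), and 0 on those of mice 4, 9 and 18. On the array of mouse 19 all 9 members lay more than 1 above their median over the 19 forestomach arrays, on the log2 scale. The count was 6 for mouse 2, 5 for mouse 12 and 4 for mouse 20, it was 1 or 2 for mice 3, 8, 10, 11 and 13, and it was 0 for the other 10. The 4 arrays with the most members lay in D0, D2 and D3, and all 4 were on slide 3.

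**Figure D1:**
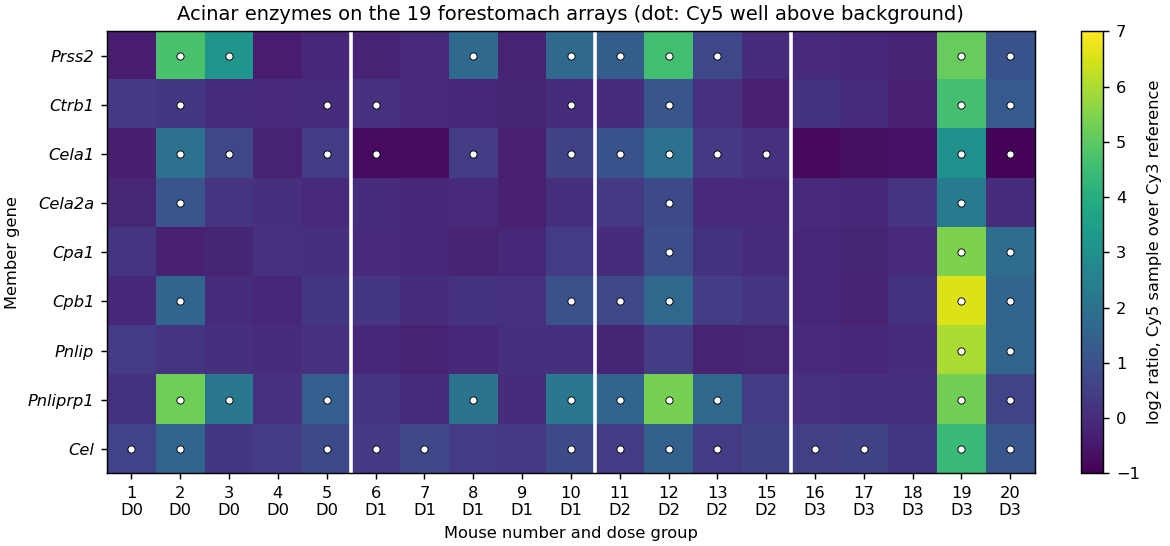
The log2 ratio of each member (rows) on each of the 19 forestomach arrays (columns, by mouse number and dose group) is shown by colour, and a white dot marks a Cy5 signal well above background. The column of mouse 19 is bright in all 9 rows, whereas the columns of mice 2 and 12 are bright mainly for Prss2, Pnliprp1 and Cela1.

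Among the proteases, Prss2 (an anionic trypsinogen) had log2 ratios in D0 of -0.36, 4.71, 3.16, -0.34 and -0.07 in mice 1 to 5 of forestomach. In D1 they were -0.21, -0.02, 1.75, -0.19 and 1.73 in mice 6 to 10, in D2 1.36, 4.59, 0.72 and 0.03 in mice 11, 12, 13 and 15, and in D3 -0.03, -0.09, -0.23, 5.14 and 1.01 in mice 16 to 20. Every dose group thus held both high and near-background arrays, and the groups overlapped. Prss2 was measured on 9 of the 19 arrays.

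Cela1 (an elastase-type protease) followed the same arrays, with 2.00 in mouse 2, 2.01 in mouse 12 and 3.03 in mouse 19, and between -0.93 and 1.01 on the other 16. In mouse 20 its ratio was -0.93, with a Cy5 signal of 154.5 that was well above background. Ctrb1 (chymotrypsinogen B) had 4.61 in mouse 19, 1.26 in mouse 20 and 1.15 in mouse 12, while the highest of the other 16 arrays was 0.32. The 7 arrays on which Ctrb1 was measured were those of slide 3. Cela2a (another elastase) was measured on 3 arrays, with 1.11 in mouse 2, 0.80 in mouse 12 and 2.32 in mouse 19. It was 0.03 and not well above background in mouse 20.

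The carboxypeptidases, which trim amino acids from the end of peptides, were highest in mouse 19. Cpa1, which removes aliphatic and aromatic residues, was measured on 3 arrays, at 0.90 in mouse 12, 5.44 in mouse 19 and 1.87 in mouse 20. Over the 5 D0 mice it ran from -0.27 to 0.21, and none of those arrays measured it. Cpb1, which removes basic residues, was measured on 6 arrays, and had 6.58 in mouse 19, 1.66 in mouse 12, 1.62 in mouse 2, 1.61 in mouse 20, 0.97 in mouse 10 and 0.73 in mouse 11.

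The lipases differed from each other. Pnlip (pancreatic triglyceride lipase) was measured in mice 19 and 20 alone, at 6.00 and 1.57, and lay between -0.24 and 0.44 on the other 17 arrays, too few for the test. Pnliprp1 (a lipase-related protein with little activity on triglycerides) had log2 ratios in D0 of 0.17, 5.23, 2.22, 0.14 and 1.39, in D1 of 0.20, 0.02, 2.09, 0.03 and 2.18, in D2 of 1.62, 5.35, 1.71 and 0.41, and in D3 of 0.15, 0.11, 0.09, 5.31 and 0.63, in mouse order. It was thus about as high in mice 2 and 12 as in mouse 19, whereas Pnlip was 0.20 and 0.44 in mice 2 and 12. Cel (bile salt-activated lipase) was measured on 13 arrays, with 4.43 in mouse 19, 1.57 in mouse 2, 1.46 in mouse 12 and 1.13 in mouse 20.

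Correlations over the forestomach arrays are given for 2 trios chosen after their values were seen. Ctrb1, Cpa1 and Pnlip correlated with each other over the 19 arrays at a Pearson r of 0.98 (Spearman rho 0.43 to 0.62), and Prss2, Pnliprp1 and Cela1 at 0.90 to 0.97 (rho 0.70 to 0.85). Between both trios r was 0.49 to 0.62 (rho 0.06 to 0.54). Without mouse 19, whose array set much of this, r was 0.81 to 0.87 within the first trio, 0.86 to 0.95 within the second and -0.07 to 0.47 between them. Cpb1 and Cel correlated with both trios, at 0.92 to 0.96 with the first and 0.70 to 0.74 with the second, and Cela2a at 0.79 to 0.85 and 0.82 to 0.85. Without mouse 19, Cpb1 and Cel stood at 0.47 to 0.73 and 0.54 to 0.74, and Cela2a at 0.07 to 0.36 and 0.79 to 0.86. Of the first trio, Pnlip and Cpa1 were measured on 2 and 3 of the 19 arrays only. These correlations are a description, since the arrays shared slides, depth and the reference.

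Genes of the glandular stomach moved on the same tissue's arrays. The mean log2 ratio of 13 such genes (Gkn1, Gkn2, Gkn3, Tff1, Tff2, Muc5ac, Pgc, Atp4a, Atp4b, Cblif, Chia1, Ctse and Lipf) was 5.01 to 6.54 on 10 arrays (mice 2, 3, 5, 8, 10, 11, 12, 13, 15 and 19) and 0.16 to 1.74 on the other 9. Of the 13, Lipf was never well above background in forestomach. By dose the range of the mean was 0.40 to 6.47 in D0, 0.16 to 5.78 in D1, 5.01 to 6.54 in D2 and 0.34 to 6.52 in D3. The highest means were those of mice 12 (6.54), 19 (6.52) and 2 (6.47).

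Prss2 was measured on 8 of those 10 arrays and on 1 of the other 9, that of mouse 20. Pnliprp1 was measured on 9 of the 10 and again on that of mouse 20 only among the 9. Cela1 was measured on all 10, from 0.14 to 3.03, and on 2 of the 9. Pnlip was measured on 1 of the 10 and 1 of the 9, and Cpa1 on 2 and 1. Mouse 20, whose glandular stomach mean was 1.16, had Cpa1, Pnlip and Ctrb1 above all arrays but that of mouse 19. Of 9 markers of pancreatic islets, 5 (Ins1, Ppy, Iapp, Pdx1, Slc2a2) were well above background on none of the 19 arrays, while Ins2, Gcg, Sst and Chga were measured on some. The mean log2 ratio of the 9 was highest in mice 12 (1.41), 2 (1.31) and 19 (1.22), which were also high in members, and was 0.29 in mouse 20 and 0.066 at its lowest. Over the forestomach arrays the mean of 6 hepatocyte genes ran from 0.018 to 3.22, highest in mice 2 and 19 (3.03), and that of 8 intestine genes from -0.045 to 1.14, highest in mice 12, 19 (1.12) and 2 (1.09). The part of the glandular stomach, islet, hepatocyte and intestine genes in the members' signal was not tested.

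**Figure D2:**
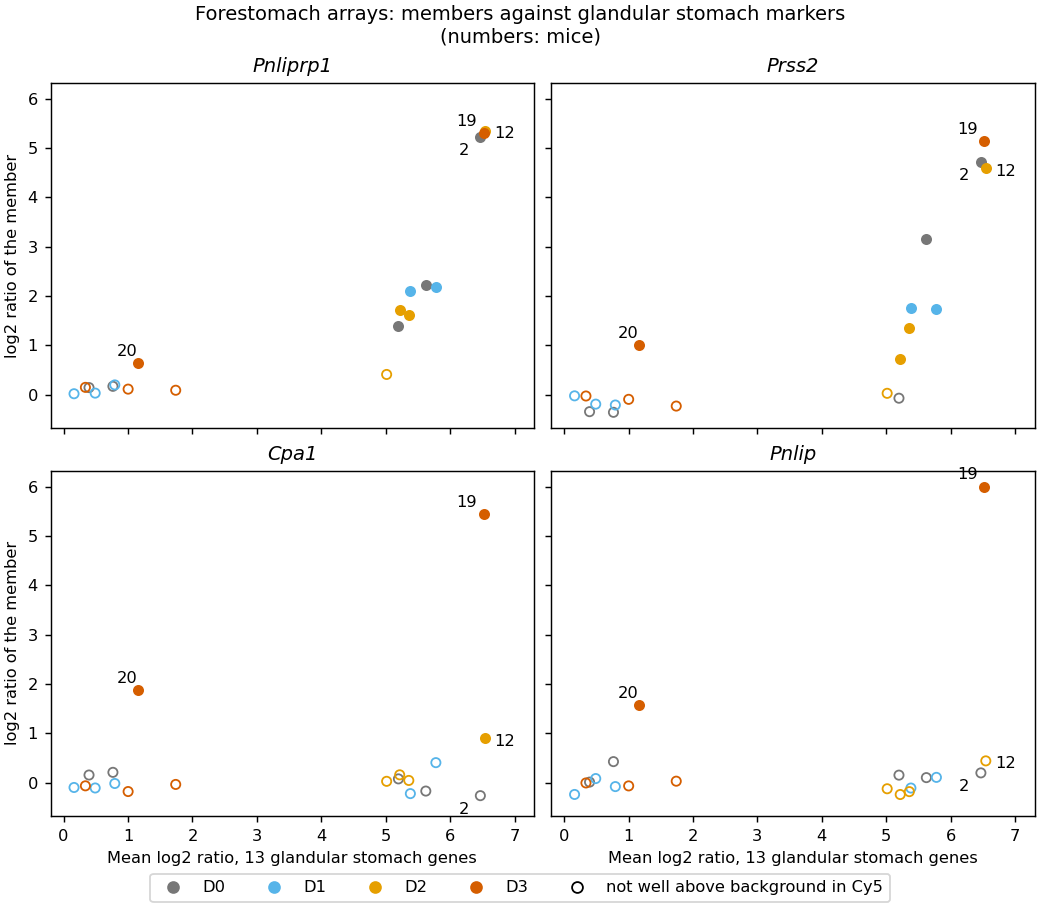
Each panel plots the log2 ratio of 1 member against the mean log2 ratio of 13 glandular stomach genes, 1 point per forestomach array, coloured by dose group, with open circles where Cy5 was not well above background and numbers beside the arrays of mice 2, 12, 19 and 20. Pnliprp1 and Prss2 are highest in mice 2, 12 and 19, where the marker mean is 6.47 to 6.54, whereas Cpa1 and Pnlip are high in mice 19 and 20 only.

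Liver and lung of mouse 19 had no such values. Cpb1 was 0.17 in liver and 0.59 in lung against 6.58 in forestomach, Pnlip was 0.04 and -0.17 against 6.00, and Prss2 was -0.15 and -0.23 against 5.14. The liver and lung values of mouse 19 lay within the range of the other mice for Pnlip and Prss2. For Cpb1 in lung, its value was the lowest of 18. In lungs of mice 2 and 12, Prss2 was -0.03 and -0.19, against 4.71 and 4.59 in their forestomachs.

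In liver a single member stood out. Ctrb1 was measured on all 19 arrays, with log2 ratios of 1.55 to 2.35 (median 1.78), and its Cy5 signal was 192.5 to 407.0. By group it was 1.88 ± 0.30 (SD, n = 5) in D0, 1.83 ± 0.18 (n = 5) in D1, 1.79 ± 0.28 (n = 4) in D2 and 1.79 ± 0.13 (n = 5) in D3. Its Cy3 signal was also higher in liver (128.0 to 172.0) than in lung (58.0 to 95.0), although the reference RNA was the same, and the role of the spot's Cy3 signal in the ratio was not tested. Ctrb1 was higher on slide 3 (1.79 to 2.35) than on slides 1 (1.55 to 1.94) and 2 (1.65 to 1.89). Cel (-0.34 to 0.09) and Cela1 (-0.61 to 0.14) were each measured on 12 liver arrays. Cpa1, Cpb1, Pnlip, Prss2, Pnliprp1 and Cela2a were not well above background on any liver array.

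In lung 5 members were measured on most arrays. Pnliprp1 ran from 1.28 to 1.93 (median 1.57) and was measured on all 18 arrays, and Cpb1 ran from 0.59 to 1.39 (median 0.80) on 17 measured arrays of 18. Cpa1 was measured on 16, from 0.07 to 0.71 over all arrays. The lungs of mice 17 and 19, both D3, had the lowest Cpa1 (0.07 each) and the highest and lowest Cpb1 (1.39 and 0.59). Cpa1 was measured on 3 of 5 D3 lung arrays and not on that of mouse 17, so that such low Cpa1 ratios say little. On the arrays of mice 17 and 19 the mean of 7 skeletal muscle genes was 5.10 and 5.24, against -0.75 to 0.29 on the other 16. That of 8 keratinocyte genes was 3.42 and 3.86, against -0.43 to -0.23, and the part of both in the Cpa1 and Cpb1 values was not tested. Ctrb1 and Cel were measured on all 18, with medians of -0.02 and 0.03. Cela1 lay between -2.12 and -1.74 with its Cy5 signal well above background on 1 array of 18, so that its level is only bounded from above there. Pnlip, Prss2 and Cela2a were not well above background on any lung array.

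**Figure D3:**
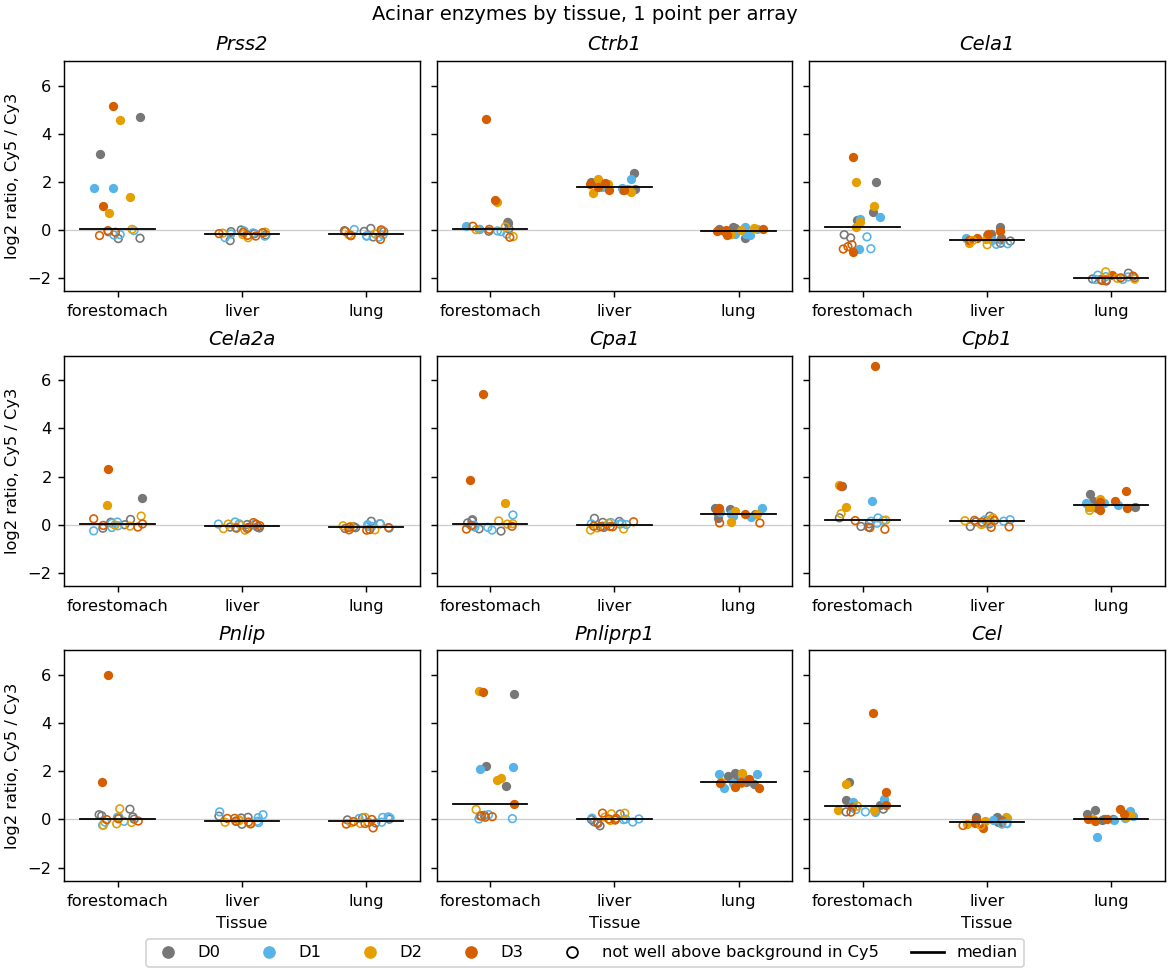
Log2 ratios of the 9 members are plotted by tissue with 1 point per array, coloured by dose group, filled where Cy5 was well above background, and with a line at the median. Forestomach points spread over several units, while Ctrb1 has its median at 1.78 in liver and Pnliprp1 at 1.57 in lung.

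The tissues were compared in 1 limma fit of all 56 arrays, as the mean over the 4 dose groups. It took 1 spread per probe from all 3 tissues, so that forestomach spread also entered the SEs of liver against lung. A probe was called where its fold was 1.5 or more and its p, adjusted over every probe tested (Benjamini-Hochberg), did not exceed 0.05. Each tissue had its own 3 slides, so tissues were compared across slides only, and slide was also run as a random block. Here a probe was tested where it was measured on at least 3 arrays of either tissue. Between forestomach and liver 6 of 8 tested members were called, 5 higher in forestomach (22.5% of all 29588 probes were called higher) and 1 lower (19%), against 41.5% of probes in either direction. Between forestomach and lung 3 of 8 were called, all higher in forestomach (17.9% of 32512 probes), against 36.6% in either direction. Between liver and lung 4 of 6 were called, 2 higher in liver (21.5% of 32647 probes) and 2 lower (25.2%), against 46.7% in either direction. Pnliprp1, Prss2 and Cpb1 were measured on 0 of 19 liver arrays, and in lung Prss2 on 0 and Cela1 on 1 of 18. Their calls against those tissues restate this filter, so that nothing is read from the counts or medians. The median log2 difference of the tested members was 0.66, 0.38 and -0.31 in these comparisons, and that of all probes 0.033, -0.0083 and -0.032. Where arrays were only centred on their median, the median of all probes was -0.12, -1.06 and -0.74.

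Of the lipases, Pnliprp1 was measured on no liver array, so that its Cy5 signal there gives only a bound. Each liver array entered at no less than the lowest Cy5 called measured for any probe on it. By this limit Pnliprp1 was at least 2.67-fold higher in lung, where every array measured it, than in liver. The same figure for forestomach was 2.27-fold. Only 10 of 19 forestomach arrays measured Pnliprp1, and the rest entered at their unmeasured signal, so that figure is no strict bound. Such figures compare channel means after between-array normalisation and are open to dye bias without a dye swap. Forestomach and lung differed by -0.065 for Pnliprp1 (SE 0.37, adjusted p 0.877), with forestomach arrays on both sides of the lung range. The log2 ratio of Cel was higher in forestomach than in liver by 0.93 (SE 0.19, adjusted p 1.39e-05). Its excess over lung was 0.76 (SE 0.19, adjusted p 0.000346). The Cy5 signal before normalisation did not follow this order. Lung arrays had the highest median Cy5 for Cel (150), followed by liver arrays (97) and then forestomach arrays (93.5). The median Cy3 of the Cel spot was 156.5 on liver arrays, against 94 for forestomach and 94.75 for lung. The part of both channels in these Cel differences was not tested. Without mouse 19 the difference of Cel from lung was 0.56, under the fold limit, and with median centring it was 0.16.

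Of the proteases, Prss2 was measured on no liver or lung array. The same kind of figure was 2.12-fold for forestomach over liver and 2.22-fold over lung. As 9 of 19 forestomach arrays measured Prss2, neither is a strict bound. Cela1 was higher in forestomach than in liver by 0.68 (SE 0.21, adjusted p 0.00333), each with 12 of 19 arrays measured. This difference of Cela1 was 0.57 without mouse 2, 0.49 without mouse 19 and 0.37 with median centring, each under the fold limit, and with slide as a random block its adjusted p was 0.0700. As 1 of 18 lung arrays measured Cela1, no difference from lung is given for it.

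By tissue means Ctrb1 was highest in liver. Forestomach minus liver was -1.44 (SE 0.21, adjusted p 1.63e-08) and liver minus lung 1.87 (SE 0.21, adjusted p 2.47e-11). Only 7 of 19 forestomach arrays measured Ctrb1. Its highest single value was nevertheless in forestomach, at 4.61 in mouse 19 against at most 2.35 in liver. Forestomach and lung differed by 0.43 (SE 0.21, adjusted p 0.0602), by 0.20 without mouse 19 and by 0.0098 with median centring. Median centring reduced the first 2 differences to -0.67 and 0.68, still called. Cela2a was measured on 3 forestomach arrays and on none of liver or lung, and was not called.

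Of the carboxypeptidases, neither Cpb1 nor Cpa1 was measured on a liver array. The same kind of figure for Cpb1 over liver was 1.33-fold in forestomach and 1.30-fold in lung, where 17 of 18 arrays measured it. In forestomach 6 of 19 arrays measured Cpb1, so that its figure there is no strict bound. Its median ratio was 0.19 in forestomach, against 0.15 in liver. Without mouse 19 the fitted difference from liver fell from 0.64 to 0.34, and the 1.33-fold figure was not run without that mouse. The call of Cpb1 between forestomach and liver was lost when any 1 of mice 2, 5, 6, 10, 11, 12, 19 or 20 was left out. Both calls of Cpb1 against liver were lost with median centring and with slide as a random block (adjusted p 0.207 and 0.109), and that between liver and lung with normexp as well (adjusted p 0.0630). Cpa1 was not called in any pair, and forestomach and lung differed by -0.015 for it (SE 0.24, adjusted p 0.957). As 3 of 19 forestomach arrays measured Cpa1, no equality is read from this. When a mouse was left out the difference ran from -0.29 to 0.092. Pnlip was measured too rarely for a test.

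The dose comparison asked whether chrysene changed the members within a tissue, by limma on the arrays of that tissue. No member was called at any dose in any tissue, and none had an unadjusted p of 0.05 or less. For forestomach the calls were 0 of 8 at D1, D2 and D3, against 0%, 0% and 0.00728% of 27491 probes, the last all higher. In liver they were 0 of 3 at each dose, against 0% of 24692 probes each time. In lung they were 0 of 5, against 0%, 0% and 0.127% of 31448 probes (0.00636% higher and 0.121% lower). Of all probes, the share with an unadjusted p of 0.05 or less at D3 was 9.24% for forestomach, 4.79% for liver and 16.16% for lung.

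In forestomach at D3 the largest fitted differences rested on mouse 19. Cpa1 differed from D0 by 1.41 (SE 0.74, adjusted p 0.598), Cpb1 by 1.26 (SE 0.91, adjusted p 0.749) and Ctrb1 by 1.02 (SE 0.63, adjusted p 0.689). Without mouse 19 these were 0.40, 0.014 and 0.16. The 5 D3 mice of Cpa1 were -0.07, -0.18, -0.04, 5.44 and 1.87 in mouse order, so that 3 of 5 lay within the range of D0. Cel differed by 0.65 and Cela2a by 0.24, while Prss2, Cela1 and Pnliprp1 differed by -0.26, -0.52 and -0.57, with adjusted p from 0.803 to 0.975 for these 5. Without mouse 19 these 5 were -0.11, -0.22, -1.26, -1.28 and -1.58 in the same order. Cela1 was negative under each of 19 alternatives run for it. The glandular stomach mean was 5.01 or more on 3 of 5 arrays in D0, 2 of 5 in D1, 4 of 4 in D2 and 1 of 5 in D3, with medians of 5.20, 0.80, 5.29 and 1.16, and its part in the D3 differences of the members and of the other acinar genes was not tested. Pnlip was measured on 2 of 5 D3 arrays and 0 of 5 D0 arrays, with Cy5 signals of 2664 in mouse 19, 177.0 in mouse 20 and 67.5 to 72.0 in the other 3 D3 mice, and Cpa1 was likewise measured on 2 of 5 against 0 of 5. The median difference of the 8 tested members was 0.44 at D3, -0.26 at D1 and 0.27 at D2. That of all probes was -0.0015, 0.0008 and -0.013 in the same order. The sign of the median at D3 rested on mouse 19, as most of the 8 differences were negative without it.

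Slide 3, which had the highest detection, held both high D3 mice. Within it, 2 D3 mice minus 2 D0 mice gave 3.75 for Cpa1, 3.61 for Pnlip, 3.15 for Cpb1 and 2.78 for Ctrb1. For Cel it gave 1.60, for Prss2 0.75, for Cela2a 0.62, for Cela1 -0.15 and for Pnliprp1 -0.34. Within slide 1, 2 D3 mice minus 1 D0 mouse gave -0.33, -0.46, -0.082 and -0.22 for Cpa1, Pnlip, Cpb1 and Ctrb1, and -0.070, 0.30, 0.081, -0.41 and -0.039 for Cel, Prss2, Cela2a, Cela1 and Pnliprp1. Within slide 2, 1 D3 mouse minus 2 D0 mice gave -0.028, -0.027, 0.20 and -0.30 for the first 4, and -0.067, -1.64, 0.086, -0.88 and -1.09 for the other 5. On slides 1 and 2, however, Cpa1, Pnlip and Ctrb1 were measured on 0 arrays and Cpb1 on 1 of 12, so that the values there say little about these 4 genes.

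In liver and lung the differences from D0 were small. The largest difference of a tested member from D0 was -0.20 in liver (Cela1 at D2) and -0.23 in lung (Pnliprp1 at D3). Pnliprp1 in lung was 1.71 ± 0.19 (SD, n = 5) in D0, 1.67 ± 0.26 (n = 5) in D1, 1.67 ± 0.23 (n = 3) in D2 and 1.47 ± 0.16 (n = 5) in D3. Cpb1 in lung was 0.89 ± 0.25 in D0 and 0.92 ± 0.31 in D3. The D3 effect differed between tissues for 0 of 8 members in forestomach against liver (0.0777% of all probes, 0.0575% higher and 0.0203% lower), 0 of 8 in forestomach against lung (0.707%, 0.498% higher and 0.209% lower) and 0 of 6 in liver against lung (0%), with 1, 1 and 0 members at an unadjusted p of 0.05 or less, as were 9.94%, 12.89% and 5.25% of all probes. That member was Cpa1 both times (limma adjusted p 0.404 and 0.273). It was measured on 0 of 5 forestomach D0 arrays and 0 of 19 liver arrays, and in forestomach only in mice 12, 19 and 20. Nothing is read from the size of its difference. Cpb1, Prss2, Pnliprp1 and Cela2a were also measured on no liver array, Prss2 and Cela2a on no lung array and Cela1 on 1 of 18. For these members the counts of 0 say little, as those tissues gave no measured D3 effect.

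**Figure D4:**
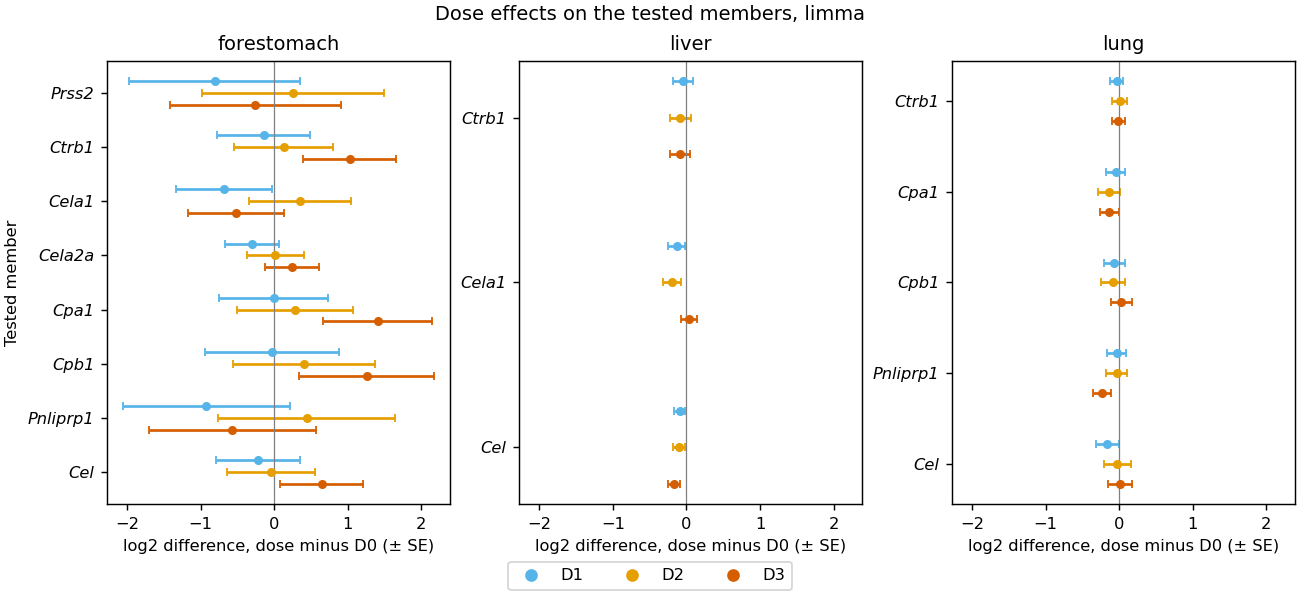
The log2 difference of each tested member from D0 is shown with its SE (limma) for D1, D2 and D3 in each tissue, on 1 scale. The forestomach bars are several times as wide as those of liver and lung, and Cpa1 at D3 lies farthest from 0, at 1.41.

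Other genes of acinar cells were read from a list of 34, of which 29 had a named probe. In forestomach 25 of these were tested and 0 were called at any dose. At an unadjusted p of 0.05 or less there were 0 at D1, 0 at D2 and 1 higher at D3. The 6 brightest were Clps (colipase, the cofactor of pancreatic lipase), Pla2g1b (pancreatic phospholipase A2), the trypsinogens Try4 and Try5, Amy2a5 (pancreatic amylase) and Dmbt1 (a mucosal scavenger protein). Clps ranged from 0.26 to 8.33 over the arrays, Pla2g1b from 0.08 to 6.03 and Dmbt1 from -0.30 to 3.98. Their D3 differences were -1.60, -1.63 and -1.24, with adjusted p of 0.850, 0.777 and 0.773. Try5 differed by -1.11 and Amy2a5 by 1.37 (adjusted p 0.902 and 0.792), and Try4 was lower at D3 in the fit as well (SE 1.79, adjusted p 0.878). The gene with an unadjusted p under 0.05 was Spink1 (1.30, SE 0.58, adjusted p 0.488), named after its value was seen.

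Many of the other acinar genes were likewise high on few arrays. On the array of mouse 19, 21 of 29 lay more than 1 above their forestomach median, on those of mice 2 and 12 17 each, on that of mouse 10 10, on those of mice 3 and 8 6 each, and on those of mice 11 and 20 5 each. Of the genes named here after their values were seen, Cela3a and Cela3b (elastases) and Zg16 (a zymogen granule protein) were at 6.45, 5.43 and 5.01 in mouse 19 and between 0.09 and 0.44 in mice 2 and 12. Try4, Try5 and Prss1 were instead high in both mouse 2 (7.10, 6.21 and 5.30) and mouse 19 (6.63, 6.45 and 3.99). Amy2a5 was 7.23 in mouse 19 and 4.45 in mouse 20, against 2.82 in mouse 2 and 3.35 in mouse 12. Ptf1a, the acinar subunit of PTF1, was measured on 3 forestomach arrays, at 1.05 in mouse 2, 1.45 in mouse 12 and 0.81 in mouse 19. The trypsinogens and the amylases are families of near-identical genes, and how far their probes read each other's RNA was not tested.

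**Figure D5:**
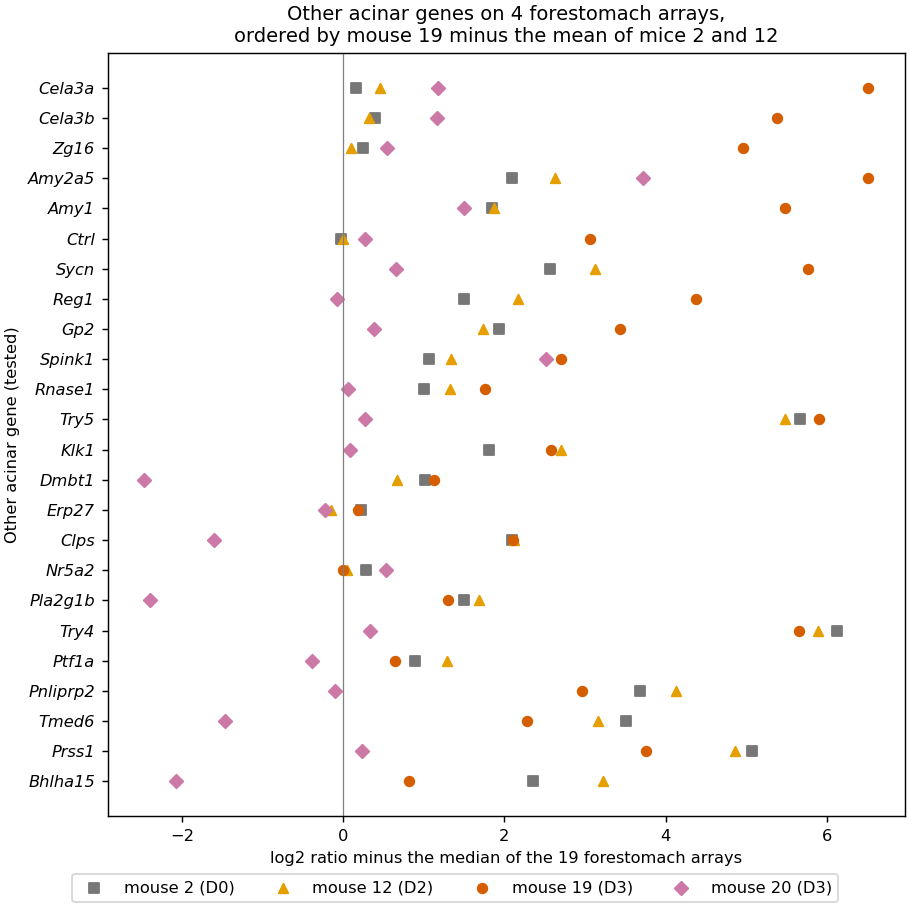
For tested acinar genes outside the members, the log2 ratio minus the median of the 19 forestomach arrays is shown on the arrays of mice 2, 12, 19 and 20. Cela3a, Cela3b and Zg16 are far higher in mouse 19 than in the other 3 mice, whereas Try4, Try5, Prss1 and Tmed6 are high in mice 2, 12 and 19.

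In liver 10 of the 29 were tested and in lung 14, and 0 were called at any dose. At an unadjusted p of 0.05 or less, liver had 1 lower at D3, and lung had 1 higher and 1 lower at both D2 and D3. The brightest in liver were Erp27 (an endoplasmic reticulum protein), Amy1 (salivary and liver amylase), Nr5a2 (a nuclear receptor of liver and pancreas), Amy2a5, Klk1 (tissue kallikrein) and Spink1 (a trypsin inhibitor). Amy1 ranged from 6.99 to 7.66, Nr5a2 from 5.06 to 5.92 and Amy2a5 from 5.06 to 5.68, while 16 of the 29, Try4, Try5 and Pla2g1b among them, were not well above background on any liver array. In lung the brightest were Rbpjl (2.58 to 3.80), Pla2g1b (1.93 to 3.06), Erp27, Amy1, Klk1 and Bhlha15, and 11 of the 29 were never measured.

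The genes most like the members were ranked by the correlation of their deviations from dose group means with the mean deviation of the tested members. In forestomach, over 19 arrays and 14056 genes, these were Sycn (r 0.98), Amy1 (0.97), Gp2 (0.96), Klk1b5 (0.94), Klk1b26 (0.93), Klk1b3 (0.92), Amy2a5, Aqp4, Capn8 and Sytl2 (each 0.91). Sycn, Amy1, Gp2 and Amy2a5 were on the acinar list. These genes were measured on 6 (Klk1b3 and Capn8) to 13 (Sytl2) of the 19 arrays, and Sycn on 8. Their r thus rests largely on few high arrays. Without mouse 19, Sycn (0.96), Klk1b5 (0.93), Gp2 (0.93), Klk1b3 (0.93) and Amy1 (0.92) were again among the first 10. Klk1b26, Amy2a5, Aqp4, Capn8 and Sytl2 were not, and Rdh7, Igfbp3, Rasef, Prss1 and Slc1a3 (each 0.92) took their places. In liver, over 19 arrays and with 3 members averaged, the list was led by Grm2 (0.89), Map3k21 (0.84) and Asb4 (0.82), followed by Carnmt1, Eps15, Klk1b26, Fam241b, Tex12, Nlrc3 and Atp8b1 (0.80 to 0.82). In lung, over 18 arrays and 5 members, it was led by Ovol2 and Hint2 (each 0.78), followed by Gper1, Efcab7, Cfap61, Atpif1, Zfp518a, Cfap36, Cyp39a1 and Abcc6 (0.73 to 0.75). Asb4 was measured on 7 of 19 liver arrays and Abcc6 on 3 of 18 lung arrays. No gene of the acinar list was among the first 10 in liver or lung, where r between pairs of members was 0.05 to 0.41 and -0.15 to 0.48.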

How the data were processed

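RNA of each tissue sample (Cy5) and a universal mouse reference RNA (Cy3) were hybridised to 2-colour arrays, 1 per mouse and tissue, with no dye swap. Per the file headers, the deposited array scans give the median spot intensity of both channels from Feature Extraction 10.7.3.1, and the flag for a signal well above background is a score of 0 or 1 set by that software. The values used are the log2 ratios the authors deposited, made by LOWESS within each array from median signals without background subtraction. They were checked against loess ratios computed here from the scanner files (r of 0.977 to 0.998 and slope of 0.952 to 0.996 over 56 arrays, column medians of -0.046 to -0.020), so that the scale is log2 of Cy5 over Cy3.

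Probes were named through their RefSeq accession with a gene table for GRCm38.p6, which named 26413 of 55681 probes (47.4%) and 20018 genes. The 3671 control spots were left out. Every member had 1 probe, 1 spot and no non-uniform spot. A probe was tested where Cy5 was well above background on at least 3 arrays of the tissue and no array had a non-uniform spot there. Groups, doses and mouse numbers came from the labels. limma 3.58.1 (R 4.3.3; lmFit and eBayes, two-sided) was used in place of the MAANOVA Fs test that the methods name, with dose compared within a tissue and tissues in 1 fit of 56 arrays, and with p adjusted by Benjamini-Hochberg over all probes tested. Calls needed an adjusted p of at most 0.05 and a fold of at least 1.5. The fit was tested on simulated data with 200 changed probes, of which those with a log2 change of 1 were called in 65% of cases for forestomach (27491 probes), 95% for liver (24692) and 89% for lung (31448) at D3. The changed probes were picked at random and given independent noise, so that these shares do not hold for the members. In forestomach the members' SEs at D3 were 0.37 (Cela2a) to 1.16 (Prss2), and their own recovery was not simulated. The number of arrays limits the precision. The same mouse number means the same animal in each tissue, and over 55 pairs of arrays the deviations of 1 mouse in a pair of tissues correlated at a median of 0.06 (-0.14 to 0.21). Alternatives were loess, median centring, normexp with offset 50, no filter, slide or mouse as a block, array column, leaving out each mouse, and, chosen after seeing the data, a fit of only the tissues compared and correlations without mouse 19. Genes were named by rule: all members, the 6 brightest tested genes per tissue of the acinar list, and the 10 genes most like the members in each tissue, plus those said to be chosen later. The members, the gene lists and the motifs were chosen with earlier results of these data known. For 1 gene of the acinar list the values are counted but not reported here.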

Additional observations from a re-analysis of the deposited data

Results flagged for a closer look

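In 59 groups of 4 or 5 arrays of a tested member, a single array was looked for whose gap to its nearest neighbour took up most of the range of the group (Dixon's 95% critical value). It was found in 11 groups, all in forestomach, where chance gives about 1 in 20, or 2.95 of 59. That share does not apply well here. The groups are not independent, because the members share arrays, and most other arrays of these groups sat near background. Cpa1 entered the test through mice 12, 19 and 20, of which mouse 12 was flagged for it. Cela2a entered through mice 2, 12 and 19, of which mice 2 and 19 were flagged for it.

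Mouse 19 was the far array of D3 for 6 members, with log2 ratios of 6.58 for Cpb1 (nearest 1.61), 4.43 for Cel (1.13), 5.14 for Prss2 (1.01), 5.31 for Pnliprp1 (0.63), 3.03 for Cela1 (-0.61) and 2.32 for Cela2a (0.25). Mouse 2 was the far array of D0 for Cpb1 at 1.62 (nearest 0.28) and for Cela2a at 1.11 (0.22). Mouse 12 was the far array of D2 for Cpa1 at 0.90 (nearest 0.16) and for Cel at 1.46 (0.55). Mouse 10 was the far array of D1 for Cpb1 at 0.97 (nearest 0.28). Each of these 11 values was the highest of its group and well above background in Cy5.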

How the results depend on the processing

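No member was called at any dose, or for a D3 effect that differs between tissues, under any alternative run. The tissue counts of 6, 3 and 4 members (forestomach and liver, forestomach and lung, liver and lung) stayed within 1.5 times of these. The first was 4 with median centring or slide as a random block, 5 with no filter or only both tissues compared in the fit, and 4 to 6 when a mouse was left out. The second was 2 to 3 when a mouse was left out, and the third 3 with median centring, normexp or slide as a random block. With mouse as the replicate block the counts were 6, 3 and 4, and the pairing changed no call of a member.

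Median centring moved the median log2 difference of all probes to -1.06 for forestomach minus lung and -0.74 for liver minus lung, and called 65.9% and 61.6% of probes there. For forestomach minus lung, the sign turned with median centring for Cpb1 (0.15) and Cpa1 (0.22) and with normexp for Pnliprp1 (0.016), Cpb1 (0.039) and Cpa1 (0.0097), all near 0 and not called. When a mouse was left out these ranged from -0.33 to 0.12 for Pnliprp1, -0.43 to 0.044 for Cpb1 and -0.29 to 0.092 for Cpa1. For forestomach D3 minus D0, the sign turned with the array column as a covariate for Cel (-0.10) and Cela2a (-0.59), and with median centring for Prss2 (0.051). Leaving out a mouse gave -1.58 to 0.28 for Pnliprp1, -0.11 to 0.92 for Cel, -1.26 to 0.56 for Prss2 and -0.22 to 0.45 for Cela2a. Within slide 1 the sign turned for Ctrb1 (-0.22), Cpa1 (-0.33), Cpb1 (-0.082), Cel (-0.070) and Prss2 (0.30), within slide 2 for Ctrb1 (-0.30), Cpa1 (-0.028) and Cel (-0.067), and within slide 3 for Prss2 (0.75). The correlation of Cpa1 with Pnlip fell from 0.98 to 0.87 without mouse 19, that of Cpa1 with Pnliprp1 from 0.49 to 0.11, and that of Prss2 with Pnliprp1 from 0.97 to 0.95. The cause of these changes was not tested. Under alternatives other than leaving out a mouse, 11 calls of single members were lost, 5 of them with median centring, which also gained 2, Cela2a for forestomach minus lung (0.66) and Cel for liver minus lung (-0.84). Every member has 1 probe, so the next brightest probe could not be tried. Weak signal over background limits what can be said of the members in liver and lung.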

Other observations

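In lung, Amy1 had log2 ratios of 2.44 in mouse 17, 2.52 in mouse 19 and 1.58 in mouse 13, and between -0.13 and 0.57 on the other 15 arrays. Mice 17 and 19 were those whose lung arrays had high skeletal muscle and keratinocyte genes, and the part of these in Amy1 was not tested. The mean log2 ratio over the 9 members was 0.098 and -0.10 on these arrays, against -0.0079 to 0.20 on the other 16. The D3 difference of Amy1 in lung was 0.93 (SE 0.41, limma adjusted p 0.276).

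In the Cy3 channel, which held the same reference RNA on every array, Ctrb1 read 494.0 on the forestomach array of mouse 19 and 75.5 to 101.0 on the other 18, and Cpa1 read 180.5 there and 36.0 to 60.5 on the others. The Cy5 signals of that array were 7869 for Ctrb1 and 5293.5 for Cpa1. In lung, Cel had a Cy3 signal of 251.0 and a Cy5 signal of 248.0 in mouse 7 (D1), where its log2 ratio of -0.74 was the lowest of the 18 arrays. The part of the second channel in these ratios was not tested.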
